A study of Mus musculus with 15 samples.

Results

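The core circadian clock loop was followed across 3 diets in mouse liver through 10 genes: the activators Arntl, Clock and Npas2 and the repressors Per1, Per2, Per3, Cry1, Cry2, Nr1d1 and Nr1d2. They were chosen by symbol from the 23420 genes of the count files, and all 10 were found and passed the filter on low counts. PolyA RNA was sequenced in 15 libraries made from the left lobe of the liver, pulverized, of mice that were male and of the inbred strain C57Bl/6J. The groups, with 5 libraries each, were BD, the base diet (4% fat), HFD, a diet high in fat (31%), and MCD, which held the same 31% of fat but was deficient in methionine, choline and folate and is widely used as a model of fatty liver disease. Mice of every group had received the vehicle (5% Alkmauls El-620 in saline), and tissue was taken 24 h after that treatment. No genetic modification is named. For the age of the mice and the clock hour of tissue collection, the sources used here give nothing. Nothing in the labels says that each library came from a separate mouse, so the p-values rest on the spread among these samples, which may be technical.

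In the clock loop of mammals, BMAL1 (the product of Arntl) pairs with CLOCK or its paralogue NPAS2, binds E-box sequences and switches on the Per, Cry and Nr1d genes. PER and CRY proteins then return to the nucleus and block the activators, while the REV-ERB nuclear receptors (products of Nr1d1 and Nr1d2) repress Arntl, Npas2 and Clock in a second, interlocked loop. In liver the transcripts of the activators and of the Nr1d and Per genes are known to peak at nearly opposite times of day, so their levels at a single hour depend on the phase of the rhythm.

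The libraries held 3704642 to 23131089 counts in genes (median 10312311), and 3 counts corresponded to 0.130 to 0.810 CPM, the count of a gene per 1e+06 gene counts of the library. On the first principal component (37.1% of the variance) HFD replicate 2 lay among the MCD libraries, at 28.4 against -12.7 to -0.42 for the other HFD libraries, and MCD replicate 3 had the lowest MCD value (15.6). The HFD and MCD samples are numbered from 51 to 60 in their labels and the BD samples well above that. A batch, a day or an hour of collection that goes with this numbering, and the base diet, cannot be told apart. Hepatocyte markers (Alb, Apoa1, Ttr, Apob and Tat) summed to 109052 to 151855 CPM over the 15 libraries, and 0 of the 5 were called between any diets by edgeR (1, 2 and 0 at an unadjusted p under 0.05 for HFD against BD, MCD against BD and MCD against HFD). Of the genes tested, 6.92%, 21.4% and 3.15% were called by edgeR for HFD against BD, MCD against BD and MCD against HFD. In homogenised tissue, fewer cells of a type and less RNA per cell cannot be told apart.

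On both 31% fat diets the activators Arntl and Npas2 and the repressor Cry1 were lower than on the base diet, and Per2, Per3, Nr1d1 and Nr1d2 were higher. Clock was lower on MCD, while Per1 and Cry2 were called in neither comparison. For HFD against BD, 7 of the 10 genes passed an adjusted p of 0.05 (edgeR quasi-likelihood test over 12193 genes, Benjamini-Hochberg), 4 higher and 3 lower, where 6.92% of the genes tested passed (3.65% higher and 3.27% lower). For MCD against BD, 8 of the 10 passed, 4 higher and 4 lower, where 21.4% of the genes tested passed (12.8% higher and 8.64% lower). Both comparisons use the same 5 BD libraries, so they are not independent of each other. The libraries of HFD and BD did not overlap for 3 higher and 3 lower members, where 7.58% of the genes tested had no overlap (5.11% higher and 2.47% lower). Those of MCD and BD did not overlap for 4 higher and 3 lower members, where 16.3% of the genes tested had none (13.5% higher and 2.76% lower). The members' median log2 fold change was 0.68 for HFD and 0.70 for MCD against BD, where the median over the genes tested was -0.01 and -0.03, with large changes in both directions among the members. With HFD replicate 2 and MCD replicate 3 left out, 6 members were called on HFD and 8 on MCD.

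**Figure D1:**
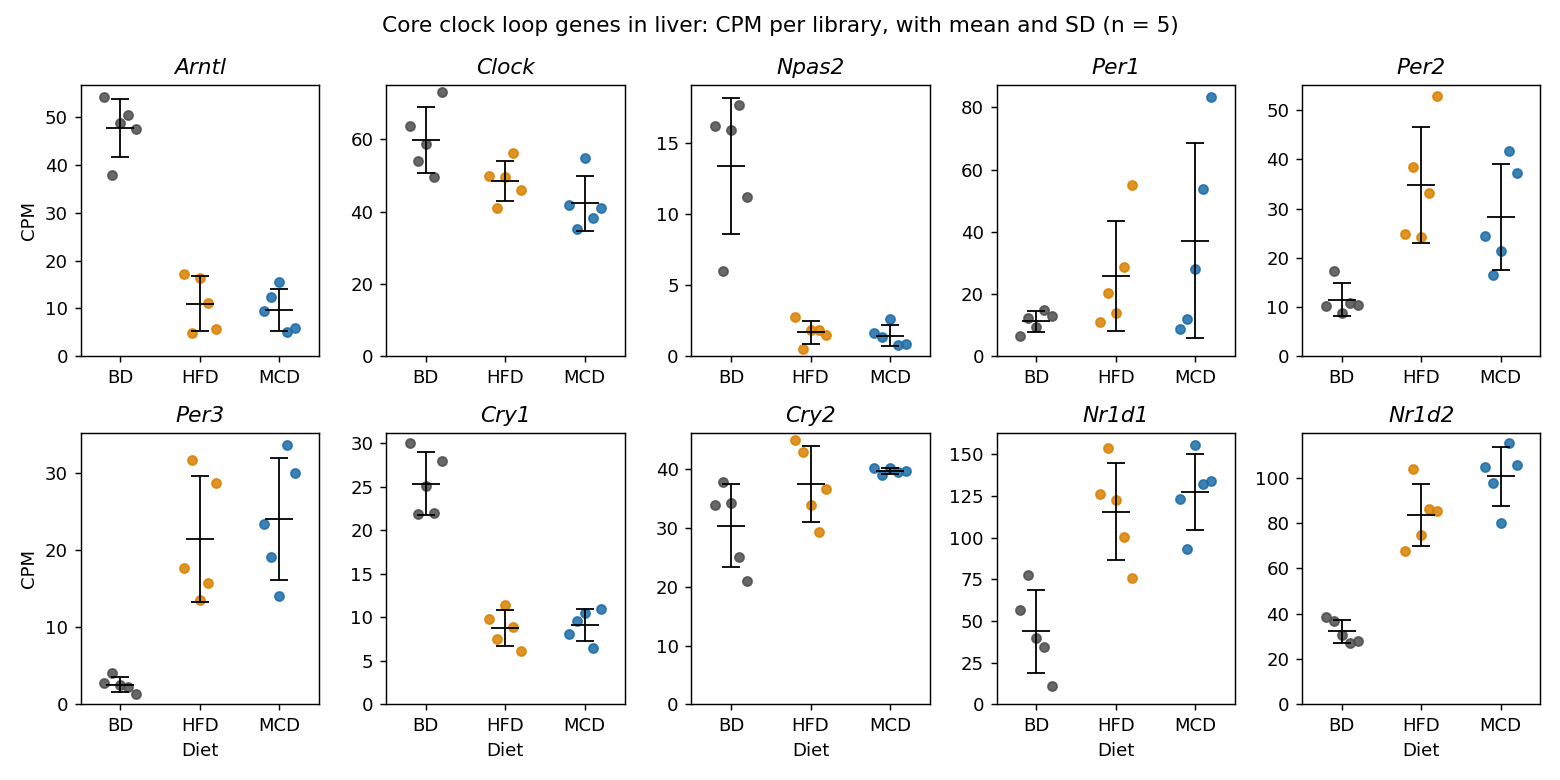
CPM of the 10 clock loop genes (y axis, counts scaled to library size, from 0) in each library, by diet (x axis); points are libraries, the long bar is the mean and the short bars mark 1 SD (n = 5). Arntl, Npas2 and Cry1 are low, and Per3 and Nr1d2 high, in every HFD and MCD library compared with every BD library, while the HFD and MCD points lie over each other.

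**Figure D2:**
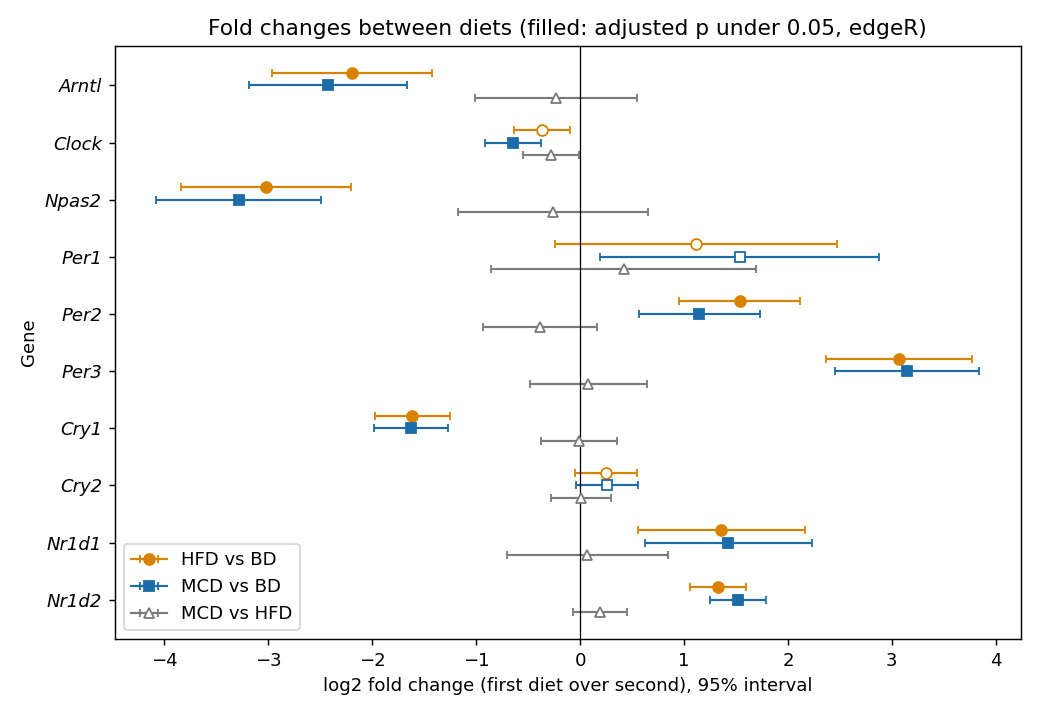
Fitted log2 fold changes (x axis) with 95% intervals of the 10 clock loop genes (y axis) for HFD against BD (circles), MCD against BD (squares) and MCD against HFD (triangles); filled symbols passed an adjusted p of 0.05 in edgeR. Circles and squares lie side by side for most genes, from about -3 for Npas2 to about 3 for Per3, and none of the triangles is filled.

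Arntl encodes BMAL1, the partner that both CLOCK and NPAS2 need (GRCm38, chromosome 7, 113207465 to 113314126, + strand). It measured 54.3, 37.8, 48.8, 50.3 and 47.5 CPM in the BD libraries, 17.1, 4.85, 16.3, 11.1 and 5.70 CPM in the HFD libraries, and 9.47, 12.4, 15.5, 5.15 and 5.90 CPM in the MCD libraries. The lowest BD library was above the highest of the other 10, with no overlap. The level of Arntl was 47.8 ± 6.11 CPM on BD, 11 ± 5.72 on HFD and 9.68 ± 4.35 on MCD (SD, n = 5). That is 4.58-fold lower on HFD (log2 fold change -2.19 ± 0.36 SE, edgeR adjusted p = 0.00166) and 5.37-fold lower on MCD (-2.42 ± 0.35, adjusted p = 2.94e-04). Among the 12193 genes ranked by the size of their change, Arntl took rank 52 on HFD and rank 97 on MCD.

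The second of the 2 Arntl promoters in the RefSeq table (GRCm38.p6, chr7:113207261-113207560, + strand, 250 bases before to 50 after the start) is shown because the REV-ERB proteins are known to act on this gene. Capitals mark AGGTCA, the short site that REV-ERB and ROR receptors share, whose first base lies 32 bases after the start.
Arntl: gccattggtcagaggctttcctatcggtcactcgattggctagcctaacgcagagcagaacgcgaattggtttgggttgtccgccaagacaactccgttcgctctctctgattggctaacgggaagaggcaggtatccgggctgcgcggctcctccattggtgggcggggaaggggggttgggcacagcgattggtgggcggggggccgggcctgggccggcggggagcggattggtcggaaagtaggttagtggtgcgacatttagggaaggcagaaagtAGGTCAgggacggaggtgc
Of 32851 promoters of 300 bases in the table, 16.3% hold AGGTCA on either strand, so its presence alone does not show binding. Whether this copy is bound was not tested. The same site occurs in the Nr1d2 promoter (77 bases before the start), in 1 of 3 Clock promoters (119 bases before) and in 1 of 2 Per1 promoters (137 bases before). No searched motif was found in the Npas2 window.

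Npas2 encodes the paralogue that can stand in for CLOCK (chromosome 1, 39193731 to 39363236, + strand). Its levels were 16.2, 6.00, 15.9, 17.7 and 11.2 CPM in the BD libraries, 2.74, 0.485, 1.83, 1.87 and 1.46 CPM in HFD, and 1.6, 1.32, 2.63, 0.788 and 0.875 CPM in MCD. Every HFD and MCD library was below every BD library, and BD replicate 2 was the nearest to them. Npas2 fell 8.12-fold on HFD (log2 fold change -3.02 ± 0.39 SE, edgeR adjusted p = 1.18e-04) and 9.75-fold on MCD (-3.29 ± 0.38, adjusted p = 2.93e-05), which were ranks 27 and 30 by size. It was the member with the fewest counts on these diets, 95 in the 5 HFD libraries together and 116 in MCD, against 697 in BD. It exceeded the filter's 0.97 CPM in 5 BD, 4 HFD and 3 MCD libraries, while the other 9 members exceeded it in each of the 15 libraries.

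Clock, the founding subunit of the activator (chromosome 5, 76209868 to 76304792, - strand), moved far less than its partners. It measured 63.7, 53.9, 58.7, 49.5 and 73.1 CPM in BD, 49.9, 40.9, 49.5, 56.1 and 46.1 CPM in HFD, and 41.9, 35.2, 54.9, 38.2 and 41.0 CPM in MCD. The ranges of the 3 diets overlapped, with MCD replicate 3 reaching into the BD range. Clock was 1.56-fold lower on MCD than on BD (log2 fold change -0.64 ± 0.13 SE, edgeR adjusted p = 0.00152). On HFD the log2 fold change was -0.36 ± 0.13 SE (adjusted p = 0.104), which passed after thinning the counts to the shallowest library (adjusted p = 0.0252) and after adjusting for each library's non-unique alignments (0.0420). Clock and Npas2, the alternative partners of BMAL1, stood in different proportions: per kb of exon, Clock was 0.98 to 3.14 times Npas2 in the BD libraries (median 1.37), 6.36 to 29.5 times in HFD (median 10.5) and 7.30 to 16.9 times in MCD (median 9.29).

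Nr1d1 encodes REV-ERB alpha, a haem-binding nuclear receptor that represses Arntl (chromosome 11, 98767932 to 98775333, - strand). It measured 56.7, 77.6, 39.7, 34.4 and 10.8 CPM in BD, 126.3, 154, 123, 100.3 and 75.6 CPM in HFD, and 123, 93.1, 156, 132 and 134 CPM in MCD. The BD libraries spread 7.20-fold from BD replicate 5 to BD replicate 2, the MCD libraries all lay above them, and HFD replicate 5 fell just under the highest BD library. Nr1d1 was 2.69-fold higher on MCD (log2 fold change 1.43 ± 0.37 SE, edgeR adjusted p = 0.0147) and 2.56-fold higher on HFD (1.36 ± 0.37, adjusted p = 0.0446). The HFD call ended in 16 of 25 alternative analyses, 12 of which left out 1 library, with adjusted p up to 0.127. The MCD call ended on adjusting for non-unique alignments (adjusted p = 0.0535). The Nr1d1 locus overlaps Thra, the thyroid hormone receptor alpha gene on the other strand, and the strand setting of the counting is not known. Thra itself fell, its mean going from 15.9 CPM on BD to 9.81 on HFD and 11.6 on MCD. Its log2 fold changes were -0.74 ± 0.17 SE (edgeR adjusted p = 0.0126) and -0.58 ± 0.17 (adjusted p = 0.0184). Arntl, Npas2 and Cry2 also overlap annotated transcripts on the other strand, and Clock and Npas2 ones on the same strand.

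The Nr1d1 promoter (RefSeq, GRCm38.p6, chr11:98775328-98775627, - strand) is shown because the gene is a known direct target of the activators. Capitals mark AACGTG, the reverse complement of the variant E-box CACGTT, whose first base is 28 bases before the start.
Nr1d1: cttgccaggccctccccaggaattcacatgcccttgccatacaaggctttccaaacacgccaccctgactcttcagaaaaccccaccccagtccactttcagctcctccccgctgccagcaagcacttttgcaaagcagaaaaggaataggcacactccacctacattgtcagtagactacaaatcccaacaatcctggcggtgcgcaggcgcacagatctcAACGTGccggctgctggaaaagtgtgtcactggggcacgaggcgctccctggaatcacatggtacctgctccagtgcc
The variant E-box occurs on either strand in 4.68% of the promoters of the table, among them also those of Cry1 and Cry2 (166 bases before the Cry2 start).

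Nr1d2 encodes REV-ERB beta, which shares this repressor role (chromosome 14, 18204054 to 18239127, - strand). It measured 38.3, 36.8, 30.6, 26.9 and 28.0 CPM in BD, 67.7, 104, 74.6, 86.0 and 85.5 CPM in HFD, and 105, 97.9, 80.1, 115 and 105 CPM in MCD. The diets on 31% fat were clear of BD, with the lowest HFD library well above the highest BD one. Nr1d2 was 2.51-fold higher on HFD (log2 fold change 1.33 ± 0.13 SE, edgeR adjusted p = 2.38e-06) and 2.87-fold higher on MCD (1.52 ± 0.13, adjusted p = 3.58e-07). Its fold change was close to that of Nr1d1, with an SE of 0.13 against 0.37. In each of the 25 alternative analyses of each comparison with BD, Nr1d2 was higher and was called.

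Per3, a period protein often described as dispensable for the core rhythm, showed the largest rise of the 10 genes (chromosome 4, 151003652 to 151044665, - strand). It measured 2.70, 4.00, 2.52, 2.18 and 1.39 CPM in BD, 17.7, 31.7, 13.5, 15.7 and 28.6 CPM in HFD, and 23.4, 19.1, 14, 33.6 and 29.96 CPM in MCD. The BD libraries were all far below the other 10. Per3 rose 8.38-fold on HFD (log2 fold change 3.07 ± 0.33 SE, edgeR adjusted p = 2.58e-05) and 8.85-fold on MCD (3.15 ± 0.33, adjusted p = 1.52e-05), which were ranks 25 and 35 by size. Camta1, annotated on the same strand across this locus, was not called (adjusted p = 0.527 and 0.329).

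The Per3 promoter (RefSeq, GRCm38.p6, chr4:151044616-151044915, - strand) is shown because it is the only one of the 13 member promoters in the table with a D-box, the element bound by DBP, TEF and HLF and by their antagonist NFIL3. Capitals mark 2 copies of TTATGTAA, with first bases 205 and 158 bases before the start.
Per3: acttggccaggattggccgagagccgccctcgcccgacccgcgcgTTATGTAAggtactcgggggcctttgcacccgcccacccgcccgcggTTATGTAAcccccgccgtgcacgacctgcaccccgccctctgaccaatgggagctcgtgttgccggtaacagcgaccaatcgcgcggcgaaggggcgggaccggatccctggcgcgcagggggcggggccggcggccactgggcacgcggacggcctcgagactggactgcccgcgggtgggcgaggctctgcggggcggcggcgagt
TTATGTAA or TTACGTAA occurs on either strand in 1.06% of the promoters of the table. The promoter table matched 9 of the 10 genes, with no entry for Per2.

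Per2 encodes a period protein of the repressor complex (chromosome 1, 91415982 to 91459324, - strand). It measured 10.3, 17.3, 8.70, 10.9 and 10.3 CPM in BD, 24.9, 38.5, 24.3, 33.3 and 52.9 CPM in HFD, and 24.4, 16.5, 21.4, 41.8 and 37.2 CPM in MCD. HFD did not overlap BD, whereas MCD replicate 2 fell below BD replicate 2, the BD library that stood apart from the other 4. Per2 was 2.90-fold higher on HFD (log2 fold change 1.54 ± 0.28 SE, edgeR adjusted p = 0.00274) and 2.22-fold higher on MCD (1.15 ± 0.27, adjusted p = 0.00680).

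Per1, a period gene that is also induced acutely by glucocorticoid and by other signals (chromosome 11, 69095217 to 69109960, + strand), was not called. It measured 6.48, 12.3, 9.35, 14.8 and 12.9 CPM in BD, 10.9, 20.5, 13.7, 28.8 and 55 CPM in HFD, and 8.78, 11.8, 28.0, 53.8 and 83.3 CPM in MCD. The diets overlapped, and within MCD the highest library was 9.49 times the lowest. The log2 fold change of Per1 was 1.12 (95% interval -0.24 to 2.47, edgeR adjusted p = 0.362) on HFD and 1.54 (0.19 to 2.88, adjusted p = 0.10) on MCD, and the latter passed by DESeq2 (adjusted p = 0.0355) and without MCD replicate 1 (edgeR, 0.0452). On HFD the value fell to 0.65 without HFD replicate 5. The glucocorticoid-induced gene Tsc22d3 measured 96.6, 123, 110, 194 and 237 CPM in BD, 45.6, 62.4, 143, 234 and 237 CPM in HFD, and 49.0, 78.3, 100.3, 120.5 and 204 CPM in MCD. The libraries highest in Per1 on HFD and MCD (replicate 5 of each) were also the highest in Tsc22d3. On BD they differed, with replicate 4 highest in Per1 (14.8 CPM) and replicate 5 in Tsc22d3 (237 CPM). Tsc22d3 is 1 of 6 glucocorticoid-responsive genes listed below and was called on neither diet (edgeR adjusted p = 0.927 and 0.426). The others were not set against Per1, and the part of glucocorticoid in the Per1 values was not tested.

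Cry1, a strong cryptochrome repressor of the activators (chromosome 10, 85131700 to 85185064, - strand), fell on both diets, where Per2 and Per3 rose. It measured 29.96, 21.8, 25.0, 21.9 and 28.0 CPM in BD, 9.76, 7.47, 11.4, 8.85 and 6.10 CPM in HFD, and 8.08, 9.56, 10.5, 6.42 and 10.9 CPM in MCD. All BD libraries were above the other 10, and HFD and MCD covered nearly the same range. Cry1 fell 3.06-fold on HFD (log2 fold change -1.61 ± 0.17 SE, edgeR adjusted p = 9.40e-06) and 3.08-fold on MCD (-1.62 ± 0.17, adjusted p = 6.06e-06).

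The Cry1 promoter (RefSeq, GRCm38.p6, chr10:85185005-85185304, - strand) is shown because it carries both the canonical and the variant E-box. The part of these sites in the fall of Cry1 was not tested. Capitals mark AACGTG, the reverse complement of the variant E-box, and CACGTG, the canonical E-box, with first bases 79 and 60 bases before the start.
Cry1: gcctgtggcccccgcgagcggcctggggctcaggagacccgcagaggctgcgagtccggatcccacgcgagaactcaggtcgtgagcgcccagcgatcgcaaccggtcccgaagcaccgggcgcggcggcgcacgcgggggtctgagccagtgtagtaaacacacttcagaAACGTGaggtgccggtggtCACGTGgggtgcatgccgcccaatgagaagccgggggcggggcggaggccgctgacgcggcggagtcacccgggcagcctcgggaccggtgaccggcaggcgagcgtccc
CACGTG occurs in 7.15% of the promoters of the table. Among the members it was found in Cry1 and in 1 of the 2 Per1 promoters (166 bases before the start).

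Cry2, the second cryptochrome (chromosome 2, 92403646 to 92434043, - strand), was not called. It measured 34.0, 37.8, 34.2, 25.0 and 21.0 CPM in BD, 45.0, 43.1, 33.9, 29.3 and 36.7 CPM in HFD, and 40.3, 39.1, 40.2, 39.6 and 39.7 CPM in MCD. The MCD libraries, with an SD of 0.49 CPM (n = 5), lay just above the highest BD library, while HFD and BD overlapped. The log2 fold change of Cry2 was 0.25 (95% interval -0.05 to 0.55, edgeR adjusted p = 0.358) on HFD and 0.26 (-0.04 to 0.55, adjusted p = 0.208) on MCD. Over the alternative analyses it ran from 0.13 to 0.34 on HFD and from 0.07 to 0.40 on MCD, higher in each. As Cry1 fell, the proportion of the 2 cryptochromes turned over: per kb of exon, Cry2 was 0.40 to 0.92 times Cry1 in the BD libraries, 1.56 to 3.18 times in HFD and 1.92 to 3.26 times in MCD.

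Between MCD and HFD, 0 of the 10 members were called by edgeR, and 0 by DESeq2 and by limma-voom (3.15% of the genes tested were called by edgeR, 2.22% higher and 0.927% lower). No member's libraries were free of overlap, where 4.54% of the genes tested had none (3.85% higher and 0.697% lower). Without adjustment, 1 member (Clock) had a p under 0.05 in edgeR, where 19.9% of the genes tested did. For Clock the log2 fold change was -0.28 (95% interval -0.55 to -0.01, edgeR adjusted p = 0.238). With HFD replicate 2 and MCD replicate 3 left out, the pair of libraries named above, it was called at -0.45 (edgeR adjusted p = 0.0189, with 1 member called lower). For Cry1 the interval was -0.38 to 0.36 and for Nr1d2 it was -0.06 to 0.45, so changes of the size seen against BD lie outside them. The intervals were wider for Arntl (-1.01 to 0.55), Npas2 (-1.18 to 0.65), Nr1d1 (-0.71 to 0.84) and Per1 (-0.86 to 1.69). Per2 had -0.93 to 0.16, Per3 -0.49 to 0.64 and Cry2 -0.28 to 0.30. Changes of the size seen against BD also lay outside the intervals of Arntl, Npas2, Nr1d1, Per2 and Per3, and inside those of Per1 and Cry2. For Clock the change on HFD lay inside its interval and the change on MCD outside.

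**Figure D3:**
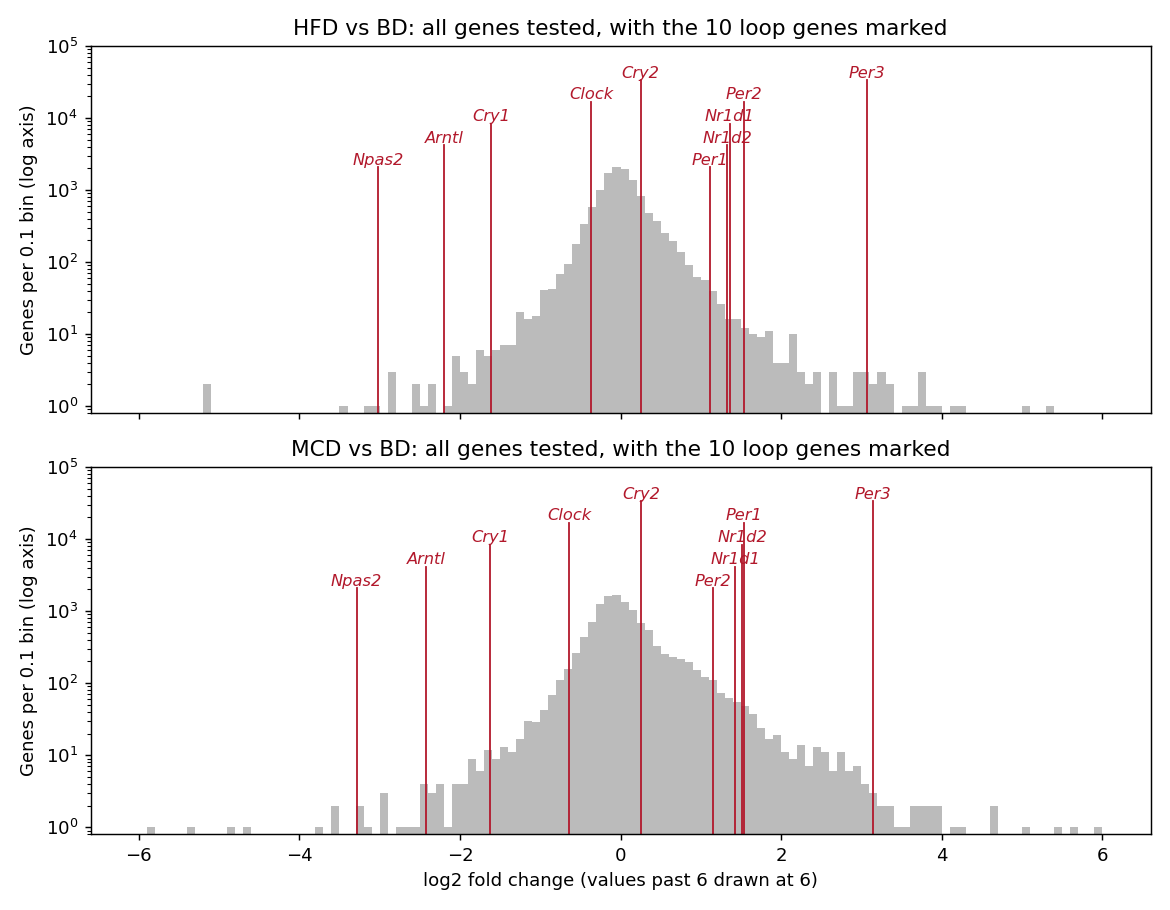
Distribution of log2 fold changes over the 12193 genes tested (x axis) with the number of genes per bin on a log axis (y axis), for HFD against BD and MCD against BD; red lines mark the 10 clock loop genes at their fitted values, and their heights carry no value. Npas2, Arntl and Per3 lie in the tails of both distributions, and Cry2 nearer their centre. Clock lies on the lower side, with a change larger than that of 79.2% of the genes on HFD and 84.7% on MCD.

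To compare levels between genes, CPM was divided by the length of the exons in kb (GENCODE M21, GRCm38). On BD, Nr1d1 had the highest mean level, 14.3 ± 8.13 CPM per kb (SD, n = 5), followed by Cry1 (7.59 ± 1.09), Arntl (6.35 ± 0.81), Nr1d2 (5.94 ± 0.96), Cry2 (4.81 ± 1.12), Clock (4.36 ± 0.67), Npas2 (2.80 ± 1.0), Per1 (1.99 ± 0.58), Per2 (1.96 ± 0.57) and Per3 (0.27 ± 0.10). In that order each gene's library range overlapped that of its next neighbour, except between Per2 and Per3. On HFD the order led with Nr1d1 (37.6 ± 9.54 CPM per kb) and Nr1d2 (15.4 ± 2.54), each clear of the next gene, and ended with Arntl (1.46 ± 0.76) and, clear below it, Npas2 (0.35 ± 0.17). Between them, from Cry2 (5.95 ± 1.03) and Per2 (5.94 ± 2.01) down through Per1, Clock, Cry1 and Per3 (2.23 ± 0.85), neighbours overlapped. MCD gave the same 2 genes at each end, with Nr1d1 at 41.5 ± 7.39, Nr1d2 at 18.6 ± 2.42, Arntl at 1.29 ± 0.58 and Npas2 at 0.30 ± 0.15 CPM per kb. Arntl thus went from rank 3 on BD to rank 9 on both 31% fat diets.

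**Figure D4:**
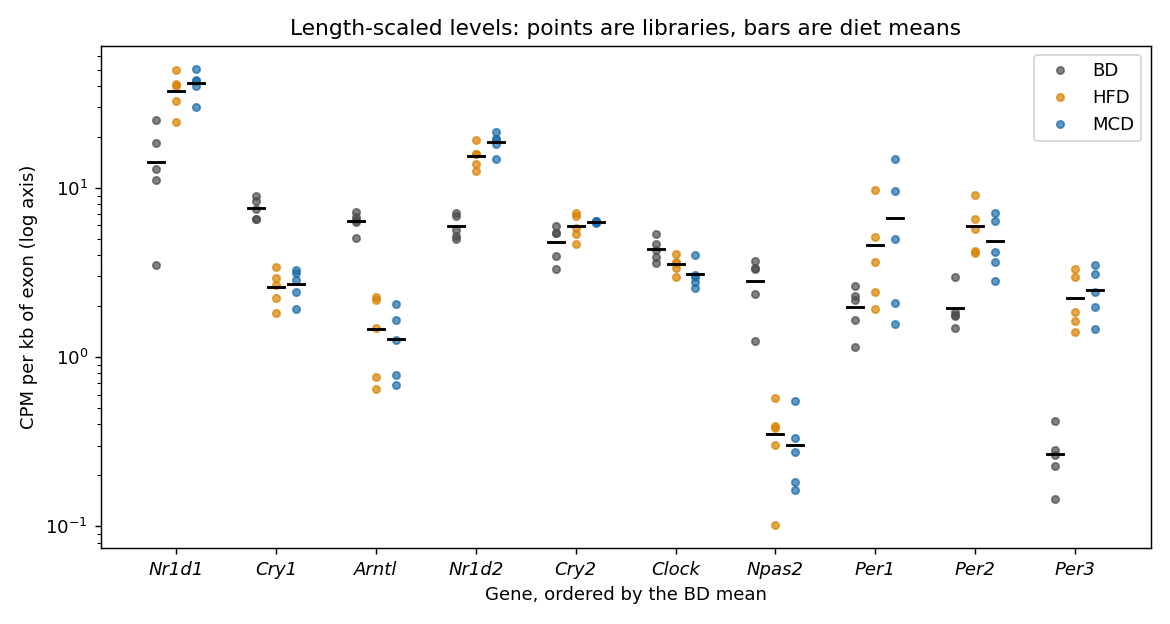
Length-scaled level of each clock loop gene (y axis, CPM per kb of exon, log axis) by library; genes run along the x axis in the order of their BD mean, points are libraries coloured by diet and bars are diet means. Per3 rises from 0.27 on BD to above 2 on HFD and MCD, Npas2 falls from 2.80 to about 0.3, and Nr1d1 stays at the top on each diet.

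Repressors and activators were also set against each other within each library. Per kb of exon, Nr1d1 was 0.56 to 5.02 times Arntl in the BD libraries (median 1.99), 18.0 to 77.5 times in HFD (median 22.1) and 18.3 to 62.7 times in MCD (median 31.8). Per3 was 0.02 to 0.08 times Arntl in BD, 0.65 to 5.12 times in HFD and 0.71 to 5.10 times in MCD. For both pairs the BD libraries were below the other 10 without overlap. Per1 over Per2 did not separate the diets, at 0.66 to 1.42 in BD, 0.45 to 1.08 in HFD and 0.37 to 2.33 in MCD. These ratios are built from the values above and carry no test.

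Libraries of the same diet also differed from each other across several members. BD replicate 2 had the lowest Arntl, Npas2 and Cry1 and the highest Per2, Per3, Cry2 and Nr1d1 of the BD libraries. BD replicate 5 had the lowest Per3, Cry2 and Nr1d1 and the highest Clock of its group. HFD replicate 2 had the lowest Arntl, Npas2 and Clock and the highest Per3, Nr1d1 and Nr1d2 among the HFD libraries. MCD replicate 4 had the lowest Arntl, Npas2 and Cry1 and the highest Per2, Per3 and Nr1d2 among the MCD libraries. MCD replicate 3 had the highest Arntl, Clock, Npas2 and Nr1d1 and the lowest Per3 and Nr1d2 of its group. These are counts of extremes within groups of 5 and carry no test.

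**Figure D5:**
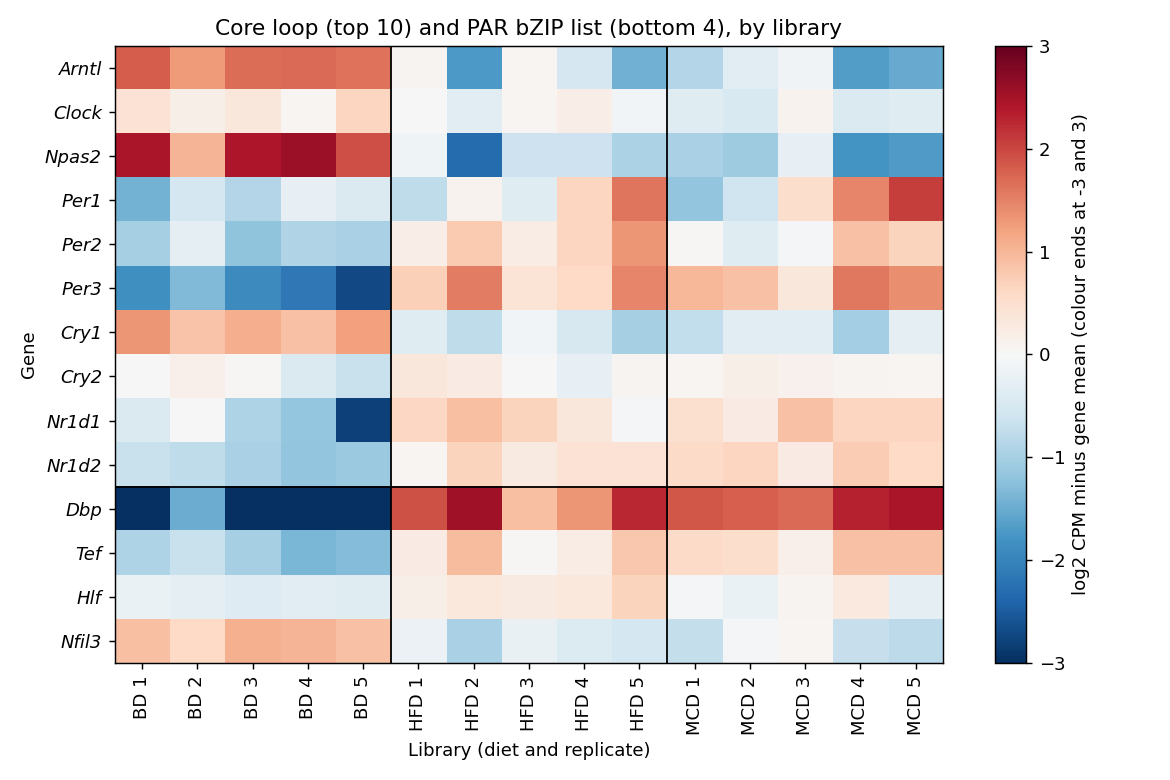
Log2 CPM of each gene minus its mean over the 15 libraries (colour, ends at -3 and 3), with libraries along the x axis and genes along the y axis; the line separates the 10 clock loop genes from the PAR bZIP factors and Nfil3. BD libraries are red for Arntl, Npas2, Cry1 and Nfil3 and blue for Per3, Nr1d2, Dbp and Tef, and BD replicate 2 is paler than the other BD libraries for Arntl, Npas2 and Dbp. For Nr1d1 they run from near white in BD replicate 2 (-0.006) to deep blue in BD replicate 5 (-2.80).

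Each member's profile, the log2 CPM minus the gene's mean over 15 libraries, was compared with those of 9332 genes of at least 5 CPM by the root mean square (RMS) difference. Within the loop the nearest pairs were Per2 with Nr1d2 (0.43 log2 units) and Arntl with Npas2 (0.49). Clock with Cry2 came next (0.51), but this exceeds the RMS of either profile by itself (0.32 for Clock and 0.25 for Cry2). The small difference of that pair reflects small changes in each gene and is not a likeness. Arntl was nearest to Ces2a, a liver carboxylesterase (0.46), Elovl3, a fatty acid elongase known for its daily rhythm (0.47), and Cyp2c55, a cytochrome P450 (0.52), where the median over the candidates was 1.28. Ces2a had a median of 405 CPM on BD, 96.9 on HFD and 78.1 on MCD, and Cyp2c55 21.6, 3.10 and 3.27 CPM. Nr1d2 was nearest to Tef, a PAR bZIP factor (0.20), Slc20a1, a phosphate transporter (0.28), and Dock10, a guanine nucleotide exchange factor (0.29), where the median was 0.75. Slc20a1 had a median of 24.6 CPM on BD, 60.7 on HFD and 78.9 on MCD. The profiles share the same 15 libraries and 3 diets, and likeness is given as a description.

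Beyond the 10 members, 8 of 10 other regulators of the loop passed the filter, and 3 were called higher on each diet. Over the genes tested, 3.65% were called higher on HFD and 12.8% on MCD. The median log2 fold change of the 8 regulators was 0.13 and 0.28. Bhlhe41 (DEC2), a repressor that competes for E-boxes, measured 0.27, 0.20, 0.65, 0.95 and 0.27 CPM in BD, 4.45, 6.11, 2.29, 2.06 and 3.18 CPM in HFD, and 3.07, 4.37, 2.45, 4.73 and 3.50 CPM in MCD. It rose without overlap by 2.94 ± 0.41 on HFD (log2, SE, edgeR adjusted p = 1.57e-04) and 2.85 ± 0.40 on MCD (9.80e-05), on 24 counts in BD. Its paralogue Bhlhe40 rose by 1.10 ± 0.24 (adjusted p = 0.0109) and 0.71 ± 0.24 (0.0461), the latter lost in 9 of 25 alternatives. Gm129 (Ciart or CHRONO, a further repressor of BMAL1) rose by 2.94 ± 0.74 (adjusted p = 0.0245, lost in 8 of 23 alternatives) and 3.05 ± 0.72 (0.00665, and 0.0522 on adjusting for non-unique alignments), on 19 counts in BD. Bhlhe41 exceeded the filter's 0.97 CPM in 0 BD, 5 HFD and 5 MCD libraries, and Gm129 in 0, 4 and 4. Both therefore entered the test only through the diets where they are high, which limits what their calls can show. Rora was not called (adjusted p = 0.940 and 0.434).

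Of 16 genes for turnover and modification of clock proteins, 1 was higher on HFD and 2 on MCD, and 0 were lower (by edgeR, where 4 of the 16 on each diet had an unadjusted p below 0.05). Over the genes tested, 3.65% were called higher on HFD and 12.8% on MCD, and 3.27% and 8.64% lower. An unadjusted p below 0.05 was found for 20.2% and 33.3% of them, so the list was near these shares. The median log2 fold change of the 16 was 0.002 and -0.05. Usp2, a deubiquitinase with a daily rhythm, measured 1.35, 3.00, 1.63, 3.54 and 2.33 CPM in BD, 6.33, 23.7, 2.29, 9.14 and 15 CPM in HFD, and 13.1, 9.87, 6.48, 25.3 and 26.6 CPM in MCD. Usp2 rose by 2.18 ± 0.56 on HFD (log2, SE, edgeR adjusted p = 0.0299, lost in 9 of 25 alternatives, limma-voom among them) and 2.59 ± 0.55 on MCD (0.00381). Csnk1e, casein kinase 1 epsilon, which phosphorylates PER proteins, rose on MCD by 0.63 ± 0.15 (adjusted p = 0.00568) and had 0.36 ± 0.16 on HFD (0.191). The MCD call of Csnk1e was lost after thinning (adjusted p = 0.0619) and on adjusting for non-unique alignments (0.0548). Between MCD and HFD, Prkaa2, a catalytic subunit of the AMP-activated kinase named here after its values were seen, was lower on MCD by -0.35 ± 0.09 (adjusted p = 0.0451), a call lost in 15 of 25 alternatives. The other 14 genes, among them Csnk1d, Btrc and Gsk3b, were called on neither diet against BD.

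The PAR bZIP transcription factors Dbp, Tef and Hlf are output factors of the loop that bind D-boxes. Dbp measured 0, 2.30, 0.24, 0.27 and 0.27 CPM in BD and 12.8 to 42.9 CPM in HFD and 24.1 to 41.7 CPM in MCD, a log2 fold change of 5.34 ± 0.54 SE on HFD (edgeR adjusted p = 2.60e-05) and 5.46 ± 0.53 on MCD (1.67e-05), with 34 counts in the BD libraries. Dbp exceeded the filter's 0.97 CPM in 1 BD, 5 HFD and 5 MCD libraries, so it passed the filter through the diets where it is high. Tef rose by 1.53 ± 0.19 and 1.66 ± 0.19 (adjusted p = 9.64e-05 and 3.21e-05), and the antagonist Nfil3 fell, by -1.35 ± 0.18 and -1.30 ± 0.18 (1.30e-04 and 8.76e-05). Hlf rose by 0.67 ± 0.11 on HFD (adjusted p = 7.89e-04). On MCD it had 0.30 ± 0.11 (adjusted p = 0.0605), which was called in 9 of 25 alternatives, DESeq2 among them (0.0436).

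Among 11 liver genes known for strong daily rhythms, 2 were higher and 1 lower on HFD, and 4 were higher and 2 lower on MCD. Over the genes tested, 3.65% were called higher and 3.27% lower on HFD, and 12.8% and 8.64% on MCD. The median log2 fold change of the 11 was 0.36 and 0.60. Wee1, a cell cycle kinase with E-boxes in its promoter, measured 1.08, 2.5, 1.54, 1.63 and 1.52 CPM in BD, 5.99, 17.6, 2.98, 3.69 and 9.81 CPM in HFD, and 18.0, 10.5, 6.13, 17.3 and 11.8 CPM in MCD. Wee1 rose by 2.17 ± 0.47 on HFD (log2, SE, edgeR adjusted p = 0.0107) and 2.76 ± 0.46 on MCD (6.07e-04), and by limma-voom the HFD value was not called (adjusted p = 0.0780). Gys2, liver glycogen synthase, rose by 0.63 ± 0.09 and 0.80 ± 0.09 (adjusted p = 2.93e-04 and 2.09e-05). Nampt, the rate-limiting enzyme of NAD salvage, rose on MCD by 0.60 ± 0.13 (0.00205) and had 0.40 ± 0.13 on HFD (0.0653, called in 4 of 25 alternatives). Lonrf3, a RING finger gene, fell by -1.91 ± 0.17 and -1.66 ± 0.16 (1.48e-06 and 3.35e-06). Elovl3 fell on MCD by -2.21 ± 0.43 (0.00234) and had -1.46 ± 0.42 on HFD (0.0530), where it was called in 9 of 25 alternatives, DESeq2 (0.00956) and limma-voom (0.0441) among them.

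Genes that follow cues able to shift or mask the liver clock were given beside these values. Of 6 glucocorticoid-responsive genes, 0 were called on HFD and 1 on MCD, the transcription factor Zbtb16 (-1.11 ± 0.26, log2, SE, edgeR adjusted p = 0.00566). Of 8 temperature and heat shock genes, 0 were called on HFD and 1 on MCD, the cold-inducible RNA-binding protein gene Cirbp (-0.66 ± 0.18, adjusted p = 0.0139, and 0.0603 without TMM factors). Of 9 feeding and fasting genes, 0 were called on either diet. Over the genes tested, 6.92% were called on HFD and 21.4% on MCD. At an unadjusted p under 0.05 (edgeR) it was 1, 1 and 1 gene of these lists on HFD, where 20.2% of the genes tested passed, and 2, 2 and 1 on MCD, where 33.3% passed. By DESeq2, 1 feeding and fasting gene was called on each diet and 1 glucocorticoid-responsive gene on HFD. By limma-voom, 1 glucocorticoid-responsive gene and 1 feeding and fasting gene were called on HFD.

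Markers of other liver cells moved with the diets. Over the genes tested, 3.65% were called higher and 3.27% lower on HFD, and 12.8% and 8.64% on MCD. The 5 Kupffer cell and macrophage markers summed to 190 to 335 CPM in BD, 306 to 459.9 in HFD and 405 to 562 in MCD, with 3 of 5 called higher on HFD and 5 of 5 on MCD. The 5 stellate cell markers summed to 229 to 302 CPM in BD, 303 to 383 in HFD and 401 to 559.9 in MCD, with 0 and 4 called higher. On HFD, 3 of these 5 had an unadjusted p under 0.05 (edgeR), where 20.2% of the genes tested did. The 5 endothelial markers summed to 195 to 243 CPM in BD, 196 to 238 in HFD and 264 to 296 in MCD, with 0 and 3 called higher. Of 3 cholangiocyte markers that passed the filter, 1 was called lower on each diet, while 0 of 4 lymphocyte and 0 of 2 neutrophil markers passed it. Their part in the changes of the clock loop genes was not tested.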

How the data were processed

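PolyA RNA of 15 liver libraries was sequenced by the authors after preparation with a stranded kit (Illumina TruSeq stranded mRNA), per the labels' protocols. The deposited counts are whole numbers, in a separate file for each library, for 23420 gene symbols and 5 closing rows of unassigned reads. The tools named in the submitters' processing notes are TopHat2 (2.0.13), Trimmomatic, HTSeq and DESeq2, with GRCm38/mm10. Which annotation, counting mode and strand setting were used is not given in the sources used here, so overlapping and antisense genes are uncertain. The closing rows were left out throughout: between 12.7% and 17.0% of uniquely placed reads fell outside genes, and there were 1.15 to 2.80 non-unique alignments per gene count.

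CPM is the deposited count times 1e+06 over the library's gene counts. The test was the quasi-likelihood F test of edgeR 4.0.16 (R 4.3.3), two-sided, in 1 robust fit over the 15 libraries, with TMM factors (0.943 to 1.10), genes kept by filterByExpr (minimum count 10, minimum total 15) and Benjamini-Hochberg adjustment over 12193 genes. The SE of a log2 fold change is its size over the root of F, and intervals are 95%. Log2 CPM for profiles used TMM and a prior count of 2. The procedure was tested on simulated data. Alternatives were DESeq2 1.42.0, limma-voom (limma 3.58.1), other scalings and filters, fits of 2 diets, thinning to 3704642 counts, a covariate for non-unique alignments, and libraries left out.

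The members and gene lists were chosen with earlier results of these data known. Named beside the 10 members were, of each other list, up to 3 genes higher and 3 lower with the smallest p for HFD against BD among those called against BD, the 4 PAR bZIP genes, and the 3 genes of at least 5 CPM nearest in profile to Arntl and to Nr1d2. A result that this rule would name is not reported here. Over 30 pairs of libraries of the same diet, chi-square per degree of freedom was 7.33 to 65.0, above sampling noise. Separate libraries of the same mouse could also exceed it, so it does not show that each library came from a separate mouse. Each library counted once. Intervals and count limits cover counting and between-library error of these samples.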

Additional observations from a re-analysis of the deposited data

Results flagged for a closer look

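Per2 in BD replicate 2 stood far from the other BD libraries, at 17.3 CPM against 8.70 to 10.9 CPM, a gap of 0.746 of the group's range (the 95% critical value for 5 samples is 0.71). It was the 1 group so marked among the 30 groups tested (10 genes in 3 diets), and chance marks about 5% of such groups. The same library had the lowest Arntl, Npas2 and Cry1 and the highest Per3, Cry2 and Nr1d1 on the base diet. Without it, Per2 was still higher and called on both diets.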

How the results depend on the processing

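No paired analysis was possible because the labels give the diets no shared replicate numbers. Over 25 alternatives, the 10 members' fold changes against BD kept their direction in all 250 values per comparison. On HFD 232 kept their side of the threshold, 16 lost the call (all Nr1d1) and 2 gained it (Clock). On MCD 247 kept it, 1 lost it (Nr1d1) and 2 gained it (Per1). With 1 library left out, 569 to 974 genes were called on HFD (6 to 7 members) and 1938 to 2805 on MCD (8 to 9 members). The HFD call of Nr1d1 ended with no filter (adjusted p = 0.0771), with only 2 diets fitted (0.127), without HFD replicate 2 and MCD replicate 3 (0.123) and when thinned (0.0657). Library totals without TMM factors moved the median of all genes on MCD from -0.03 to 0.12 (log2), and the share of higher genes among those called from 52.7% to 66.4% on HFD, 59.7% to 81.8% on MCD and 70.6% to 86.0% between MCD and HFD.

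MCD against HFD depended most on the settings. The 384 genes called became 701 by DESeq2, 224 with 2 diets fitted, 1365 without HFD replicate 2 and MCD replicate 3 (with 1 member called, Clock), 168 when thinned and 113 adjusted for non-unique alignments, and 74 (without HFD replicate 4) to 1248 (without HFD replicate 2) with 1 library left out. No member was called with any single library left out. Directions reversed for Cry1 without TMM (0.064), with a minimum count of 30 (0.0077), thinned (0.15) and with the covariate (0.10), for Cry2 thinned (-0.015) and with the covariate (-0.17), and with the covariate for Per3 (-0.31) and Nr1d1 (-0.41). With 1 library left out, or HFD replicate 2 and MCD replicate 3 together, values ran from -0.67 to 0.024 for Arntl, -0.85 to 0.011 for Npas2, -0.072 to 0.88 for Per1, -0.073 to 0.40 for Per3, -0.13 to 0.10 for Cry1, -0.071 to 0.089 for Cry2 and -0.050 to 0.19 for Nr1d1. The cause was not tested. Of 822 values for 17 other genes, 749 kept their side, 46 lost and 27 gained the call, and 0 reversed. Depth limits Npas2, Per3, Dbp, Bhlhe41 and Gm129 in the group where each is low.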
